A study of Mus musculus with 43 samples.

Results

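Brown adipocyte cultures that overexpressed RUNX2 were compared directly with cultures that overexpressed RUNX1, in order to see what sets one factor apart from the other. The comparison used 6 of the 43 libraries of a mouse RNA-seq series, chosen by their labels: 3 libraries of the group labelled for Runx2 overexpression and 3 of the group labelled for Runx1 overexpression. A further 3 libraries from the same count table, labelled OEV with genotype WT and called vector cultures here, served only to show the level without either factor. All 9 libraries came from brown preadipocytes of a line labelled BAT that were taken through differentiation and are labelled mature brown adipocytes. No animal age, strain or sex is given, and the labels state neither the promoter of the transgenes nor whether the lines were clones. Polyadenylated RNA was counted per gene symbol, with totals of 32878171 to 50447009 counts in the RUNX2 libraries, 36292136 to 43400221 in the RUNX1 libraries and 32401897 to 42789865 in the vector libraries. The labels do not say that replicates were separate cultures, so p-values measure only the spread between these libraries, which may be technical.

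RUNX1 and RUNX2 share a DNA-binding domain, the Runt domain, which recognises the same short core sequence and binds it more tightly together with the partner protein CBFB. RUNX1 is best known for its part in blood cell formation and RUNX2 as the factor that commits mesenchymal cells to bone. Brown adipocytes burn fatty acids in mitochondria rich in respiratory chain, and the uncoupling protein UCP1 lets that respiration give heat. Preadipocytes and bone-forming cells arise from related mesenchymal progenitors, and RUNX2 is known to oppose fat cell formation.

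Levels are given as CPM, counts scaled to a common library total by the TMM method of edgeR. A gene was called where edgeR's quasi-likelihood test gave an adjusted p below 0.05 over all 14296 genes tested, and every log2 fold change is RUNX2 over RUNX1 unless a vector comparison is named. By that rule 5855 genes (41.0%) differed, 2841 (19.9%) higher and 3014 (21.1%) lower in RUNX2 cultures. At least 2-fold differences were found for 1002 higher and 632 lower genes, and at least 4-fold differences for 366 higher and 174 lower genes. In 3736 genes (26.1%) every RUNX2 library lay above every RUNX1 library, and in 3718 (26.0%) every one lay below. The median log2 fold change of all tested genes was -0.01.

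1 library stood apart and bears on the RUNX1 side. RUNX1 replicate 3 held transcripts of heart muscle: the summed level of 13 cardiac markers was 1.94 to 2.86 CPM in the RUNX2 libraries, 1.42 and 2.33 CPM in RUNX1 replicates 1 and 2, and 2200 CPM in RUNX1 replicate 3. Vector replicates 1 and 2 held 149 and 566 CPM of them, and vector replicate 3 held 2.43 CPM. Myh6, the main myosin heavy chain of the adult mouse heart, was at 0.037 CPM at most in the RUNX2 libraries, at 0 in RUNX1 replicates 1 and 2 and at 611 CPM in RUNX1 replicate 3. Summed endothelial markers were at 11.1 to 11.6 CPM in the RUNX2 libraries, at 2.29 and 1.44 CPM in RUNX1 replicates 1 and 2 and at 22.8 CPM in RUNX1 replicate 3. In the RUNX2 libraries that sum was mostly Kdr, at 6.81, 8.74 and 8.61 CPM, followed by Vwf, at 3.9, 2.36 and 2.22 CPM. Vwf was at 1.97, 0.709 and 2.3 CPM in the RUNX1 libraries. Of the other markers, Pecam1, Tek and Emcn were at 0.393 CPM at most in the RUNX2 libraries, and Cdh5 and Cldn5 were at 0. Cdh5 was at 0.0229 and 0.101 CPM in RUNX1 replicates 1 and 2 and at 5.24 CPM in RUNX1 replicate 3. Without RUNX1 replicate 3 the calls increased to 3787 higher and 3780 lower, so values without it are given where they differ by over 1.5 times. The part of this library's muscle content in the other results was not tested beyond leaving it out. The other RUNX1 and RUNX2 replicates correlated with each other at 0.9941 to 0.9975 within a group (Pearson r of log2 CPM across genes), and RUNX1 replicate 3 correlated with its group at 0.9816 and 0.9828.

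All libraries expressed the defining genes of fat cells. Summed over 7 adipocyte markers, RUNX2 cultures held 4070 to 4930 CPM, RUNX1 cultures 7150 to 8870 CPM and vector cultures 8210 to 8510 CPM. Of 8 brown fat markers the sums were 56.9 to 67.2 CPM in RUNX2 cultures and 653 to 785 CPM in vector cultures. In RUNX1 replicates 1, 2 and 3 they were 85.5, 92.1 and 141 CPM, the last being the library with heart muscle transcripts. Ebf2, which did not pass the test, made up most of the RUNX2 sums, at 38.2, 43.3 and 47.9 CPM. The sum of 12 fibroblast markers, made up mostly of Col1a1 and Col3a1, was 6780 to 7460 CPM in RUNX2 cultures, 2300 to 2650 CPM in RUNX1 cultures and 497 to 1100 CPM in vector cultures. Of the 9 tested, 5 were higher and 1 lower: Pi16, a marker of fibroblast progenitors, was at 0.0545, 0.225 and 0.185 CPM in RUNX2 libraries and at 0.917, 0.658 and 3.13 CPM in RUNX1 libraries (log2 -3.3, SE 0.75, or -2.31 without RUNX1 replicate 3). The progenitor surface marker Cd34 was at 0.314 CPM at most in RUNX2 libraries and at 0, 0.0506 and 5.26 CPM in RUNX1 libraries, the last again RUNX1 replicate 3. In bulk RNA, fewer cells of a type and less RNA per cell cannot be told apart, and this holds for every result below.

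The transgenes were measured first, as a check of the labels. Runx2 stood at 281, 332 and 313 CPM in RUNX2 libraries, at 17.1, 15.3 and 18 CPM in RUNX1 libraries and at 7.74, 9.29 and 9.28 CPM in vector libraries. Runx1 stood at 28.8, 29.4 and 32.6 CPM in RUNX2 libraries, at 66.9, 68.8 and 85.9 CPM in RUNX1 libraries and at 5.73, 4.26 and 6.7 CPM in vector libraries. Both genes separated the groups completely, Runx2 with a log2 fold change of 4.2 (SE 0.11) and Runx1 with -1.28 (SE 0.12), and in each case the cultures given the other factor still lay above all vector cultures. Against vector, Runx2 in RUNX2 cultures had a log2 fold change of 5.14 (SE 0.12) and Runx1 in RUNX1 cultures one of 3.72 (SE 0.17). Counts of a gene do not separate the transgene from the cell's own copy. The identity of the factor and the degree of its overexpression cannot be told apart in this design. Cbfb, the shared partner subunit, did not pass the test (128, 142 and 157 CPM in RUNX2 libraries against 142, 133 and 146 CPM in RUNX1 libraries, log2 0.02, SE 0.10, edgeR adjusted p = 0.875). Among 22 corepressors and partners, 8 were higher and 2 lower in RUNX2 cultures, a total near the 41.0% called over all tested genes. The higher count was 5 without RUNX1 replicate 1 and 4 without RUNX2 replicate 2. The lower count was 1 without RUNX1 replicate 1, RUNX1 replicate 2, RUNX2 replicate 2 or RUNX2 replicate 3. Runx1t1, known as the ETO fusion partner of RUNX1 in leukaemia, was at 9.43, 15.3 and 15.8 CPM in RUNX2 libraries and at 1.65, 1.42 and 1.76 CPM in RUNX1 libraries (log2 3.06, SE 0.23). The Groucho family corepressor Tle2 was also higher (log2 1.33, SE 0.12).

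**Figure D1:**
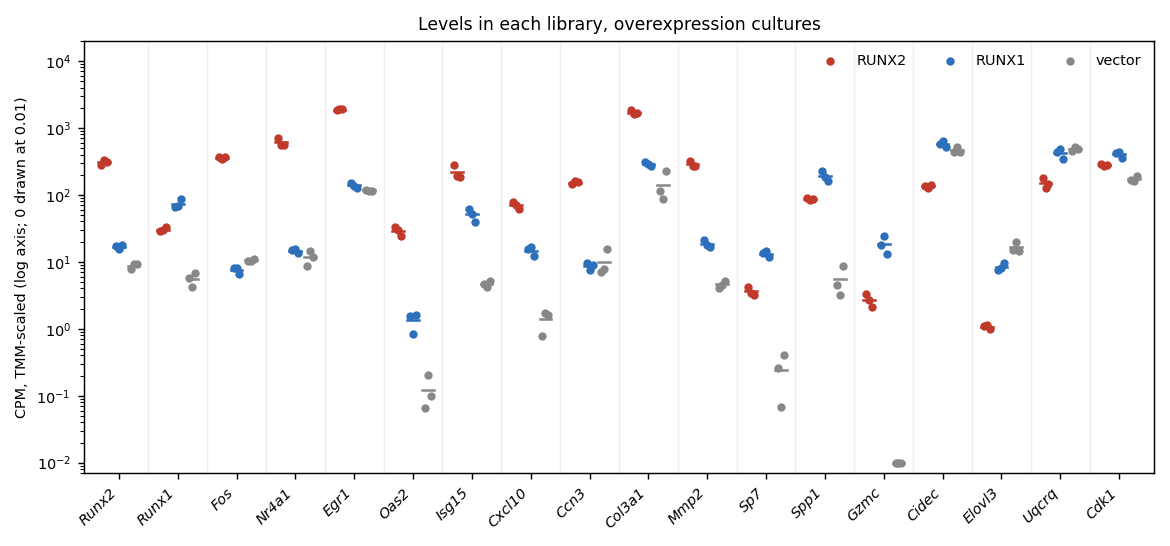
CPM per library on a log axis for 18 genes in RUNX2 (red), RUNX1 (blue) and vector (grey) cultures, with a bar at each group mean and 0 drawn at 0.01. The 3 RUNX2 libraries of Fos sit between 343 and 365 CPM and the 3 RUNX1 libraries between 6.57 and 8.15 CPM, beside vector libraries at 10.1 to 11.2 CPM, while the RUNX1 libraries lie above the RUNX2 libraries for Sp7, Spp1, Gzmc, Cidec, Elovl3, Uqcrq and Cdk1.

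Immediate early genes are switched on within minutes of growth factor, calcium or stress signals, without new protein synthesis. Of 44 tested, 36 were higher and 2 lower in RUNX2 cultures (median log2 fold change 1.85). The list's median against vector was 2.25 with RUNX2 and 0.36 with RUNX1, and these comparisons share the vector libraries. Leaving out any single library gave 35 to 37 higher calls.

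AP-1 is a dimer of FOS and JUN family proteins, and 5 of its 7 tested subunits were higher. Fos had 365, 343 and 363 CPM in RUNX2 libraries, 8.12, 8.15 and 6.57 CPM in RUNX1 libraries and 10.1, 10.3 and 11.2 CPM in vector libraries. RUNX1 libraries lay below all vector libraries, and RUNX2 cultures stood 46.8-fold above RUNX1 cultures (log2 5.55, SE 0.12, edgeR adjusted p = 8.74e-08). Fosb, another FOS family subunit, was at 192, 171 and 177 CPM in RUNX2 libraries, 3.81, 3.26 and 3.02 CPM in RUNX1 libraries and 0.922, 1.54 and 1.6 CPM in vector libraries (log2 5.74, SE 0.12). Fosl2, also of the FOS family, had a log2 fold change of 1.61 (SE 0.08). The JUN subunits, which can pair with FOS or with each other, had 2.58 (Junb, SE 0.19) and 2.24 (Jun, SE 0.10).

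Early zinc finger factors followed, with 10 of 11 higher. Egr1, which carries mitogenic signals to growth genes, had 1820, 1910 and 1900 CPM in RUNX2 libraries, 150, 137 and 127 CPM in RUNX1 libraries and 119, 116 and 115 CPM in vector libraries (log2 3.77, SE 0.10). Egr2 and Egr3, its paralogs, had log2 fold changes of 4.27 (SE 0.12) and 4.18 (SE 0.10). The orphan nuclear receptor Nr4a1, induced in fat by cAMP and in many cells by calcium, was at 708, 563 and 551 CPM in RUNX2 libraries, 14.9, 15.3 and 13.4 CPM in RUNX1 libraries and 8.7, 14.6 and 11.6 CPM in vector libraries. RUNX2 and RUNX1 libraries did not overlap for Egr1 or Nr4a1, and for Nr4a1 the RUNX1 range overlapped the vector range. Feedback genes were higher as well, 19 of 23: Btg2, an antiproliferative factor, by 3.73 (SE 0.14), Zfp36, which triggers decay of cytokine mRNAs, by 3.49 (SE 0.09), and the stress factor Atf3 by 3.24 (SE 0.14) on the log2 scale. Ccn1, a secreted matrix protein that responds to serum and YAP, was at 1950, 1770 and 1680 CPM in RUNX2 libraries, 215, 216 and 156 CPM in RUNX1 libraries and 51.9, 32.9 and 76.5 CPM in vector libraries. Here RUNX1 cultures were already above vector cultures, with RUNX2 cultures higher again (log2 3.20, SE 0.15).

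The 2 exceptions were regulators of signalling. Rgs2, a brake on Gq-coupled receptors, had 27.8, 26.2 and 29.1 CPM in RUNX2 libraries, 129, 141 and 139 CPM in RUNX1 libraries and 203, 179 and 155 CPM in vector libraries (log2 -2.30, SE 0.09). Dusp4, a phosphatase of MAP kinases, had a log2 fold change of -0.54 (SE 0.11). Both were lower in every RUNX2 library than in any RUNX1 or vector library.

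Genes of the interferon response were also mostly higher with RUNX2. Type I interferons act through JAK kinases and a transcription factor complex that binds a repeated element, the ISRE, in front of antiviral genes. Of 82 tested genes of this response, 65 were higher and 4 lower in RUNX2 cultures, or 2 lower without RUNX2 replicate 2 (median log2 fold change 1.55). The list's median against vector was 3.14 with RUNX2 and 1.63 with RUNX1. The promoters of Isg15, Ifit1 and Ifit3 are shown because these antiviral genes carry several copies of the ISRE core, GAAANNGAA, close to their start; capitals mark matches on either strand, and overlapping matches are joined. The sequences are the 170 bases before each start in RefSeq, on build GRCm38.p6 and in the direction of the gene: Isg15 at chr4:156200819-156200988 on the minus strand, Ifit1 at chr19:34640719-34640888 and Ifit3 at chr19:34583359-34583528, both on the plus strand.
Isg15: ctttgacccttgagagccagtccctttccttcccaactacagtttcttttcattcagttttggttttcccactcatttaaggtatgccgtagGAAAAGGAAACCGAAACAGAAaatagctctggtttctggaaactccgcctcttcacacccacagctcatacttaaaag
Ifit1: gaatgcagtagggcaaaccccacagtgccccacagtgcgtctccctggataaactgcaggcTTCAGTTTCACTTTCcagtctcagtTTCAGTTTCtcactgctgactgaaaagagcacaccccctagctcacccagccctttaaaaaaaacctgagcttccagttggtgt
Ifit3: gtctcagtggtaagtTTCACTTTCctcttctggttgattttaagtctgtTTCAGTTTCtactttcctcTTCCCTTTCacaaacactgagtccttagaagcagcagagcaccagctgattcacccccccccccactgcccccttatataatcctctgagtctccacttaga

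Sensors of foreign nucleic acid, which start the response, were higher in 9 of 11 cases, while of 5 tested interferon ligands and receptors 1 was higher (median 0.21). Ifih1, the RNA helicase MDA5, had 83.5, 92.8 and 85.1 CPM in RUNX2 libraries, 18.8, 16.1 and 18.4 CPM in RUNX1 libraries and 8.37, 5.64 and 9.03 CPM in vector libraries (log2 2.29, SE 0.10). Zbp1, which senses Z-form nucleic acid, reached log2 3.17 (SE 0.14). Ifnb1, interferon beta, had 26 counts in all over the RUNX2 libraries and 0 over the RUNX1 libraries, at least 8.26-fold higher with a floor of 3 counts over the RUNX1 group, and was not tested because of its low counts.

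Of 12 tested signal transducers of the pathway, 7 were higher and 2 lower, or 1 lower without RUNX1 replicate 1, RUNX1 replicate 2, RUNX2 replicate 2 or RUNX2 replicate 3. Irf7, which amplifies interferon production, was at 174, 135 and 127 CPM in RUNX2 libraries, 37.4, 28.7 and 22.6 CPM in RUNX1 libraries and 6.06, 6.64 and 6.55 CPM in vector libraries (log2 2.29, SE 0.19). Its groups did not overlap, with RUNX2 above RUNX1 and RUNX1 above vector. Irf5, a factor of Toll-like receptor signalling, went the other way, at 5.8, 4.58 and 4.05 CPM in RUNX2 libraries against 13, 11.6 and 9.65 CPM in RUNX1 libraries (log2 -1.25, SE 0.18).

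Antiviral effectors were higher in 31 of 35 cases. Oas2, an enzyme that activates RNase L, was at 33.3, 29.9 and 24.4 CPM in RUNX2 libraries, 1.56, 0.835 and 1.6 CPM in RUNX1 libraries and 0.0659, 0.201 and 0.1 CPM in vector libraries, which is 21.8-fold higher with RUNX2 than with RUNX1 (log2 4.45, SE 0.24). Isg15, a ubiquitin-like protein, was at 277, 193 and 187 CPM in RUNX2 libraries, 61.5, 52.5 and 39.8 CPM in RUNX1 libraries and 4.61, 4.16 and 5.2 CPM in vector libraries (log2 2.09, SE 0.20). Ifit1, which binds viral RNA ends, was at 296, 333 and 337 CPM in RUNX2 libraries and at 112, 97.1 and 90.8 CPM in RUNX1 libraries (log2 1.69, SE 0.10), and its neighbour Ifit3 was at 338, 269 and 259 CPM against 54.0, 42.2 and 34.2 CPM (log2 2.73, SE 0.18). The groups were separate for all 4 genes, with Ifit1 the least different of them; the IFIT and OAS families hold close paralogs, between which the counting may have split reads. Mx1, a GTPase that blocks influenza virus, and Oas1a reached log2 4.74 (SE 0.31) and 4.40 (SE 0.25). GTPases and antigen presentation genes were higher in 17 of 19 cases, among them Iigp1 (log2 3.55, SE 0.23) and Gbp3 (log2 2.49, SE 0.10). Ifitm1, a membrane protein that hinders viral entry, was lower, at 0.899, 0.618 and 0.499 CPM in RUNX2 libraries against 2.16, 2.53 and 2.14 CPM in RUNX1 libraries (log2 -1.76, SE 0.33).

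Inflammatory mediators were also mostly on the RUNX2 side, with 29 of 47 tested genes higher and 5 lower (median log2 fold change 0.90). The lower calls numbered 3 without RUNX1 replicate 1, RUNX1 replicate 2 or RUNX2 replicate 2, and 2 without RUNX2 replicate 3. Chemokines accounted for 10 of the higher genes out of 12 tested. Cxcl10, which attracts T cells and is itself an interferon target, was at 79.2, 69.9 and 61.1 CPM in RUNX2 libraries, 15.3, 16.4 and 12.3 CPM in RUNX1 libraries and 0.791, 1.74 and 1.6 CPM in vector libraries (log2 2.25, SE 0.14). Ccl2, which attracts monocytes, was at 56.5, 53.3 and 45 CPM in RUNX2 libraries, 18.4, 19.8 and 12.3 CPM in RUNX1 libraries and 0.988, 0.973 and 1.58 CPM in vector libraries (log2 1.61, SE 0.18). Both chemokines were raised with either factor and highest with RUNX2. The complement gene C4b reached log2 3.65 (SE 0.17), and Vcam1, an adhesion molecule for leukocytes, 2.65 (SE 0.15). Lcn2, an iron-binding acute phase protein, was lower (log2 -1.96, SE 0.19), at 8.39, 5.48 and 6.32 CPM in RUNX2 libraries against 30.6, 26.7 and 20.9 CPM in RUNX1 libraries and 56.7, 57.9 and 79.5 CPM in vector libraries. Summed over 12 macrophage markers, RUNX2 libraries held 15.7 to 18.4 CPM, RUNX1 libraries 8.99 to 20.3 CPM and vector libraries 5.3 to 8.86 CPM, with Ptprc, the pan-leukocyte marker, at 0 in all RUNX2 libraries and in RUNX1 replicates 1 and 2.

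A separate table of the series holds 2 cultures labelled for full-length Runx2, whose columns are headed as controls there and were matched through the samples' descriptions. In them Runx2 was at 294 and 297 CPM, inside its range in the RUNX2 cultures here. Fos was at 4.02 to 4.14 CPM there, Nr4a1 at 11.6 to 12.8 CPM, Egr1 at 55.1 to 64.7 CPM, Isg15 at 5.82 to 7.52 CPM and Oas2 at 0.118 CPM at most. Mmp2 was at 0.473 to 0.592 CPM, Col3a1 at 24.7 to 33.4 CPM and Sp7 at 0.236 CPM at most in those cultures, while Cidec was at 541 to 567 CPM and Uqcrq at 418 to 430 CPM. For each of these 10 genes the full-length cultures lay outside the RUNX2 range given here, below it for all but Cidec and Uqcrq. They also lay below the vector range for Fos, Egr1, Mmp2, Col3a1 and Uqcrq. For Isg15 and Cidec they lay above the vector range, and for Nr4a1, Oas2 and Sp7 they overlapped it. Levels thus differed between the tables from the vector cultures as well, and the reason was not tested. Spp1, at 35.9 to 46.6 CPM, lay between the vector and RUNX2 ranges. The tables were not made together, so these levels are set side by side without a test, and Mmp2, Col3a1, Cidec and Uqcrq were chosen after their values were seen.

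The extracellular matrix leaned to RUNX2 as well. Of 86 tested matrix genes, 51 were higher and 8 lower in RUNX2 cultures (median log2 fold change 0.75, with medians against vector of 2.11 for RUNX2 and 1.17 for RUNX1). Fibrillar collagens, the tension-bearing fibres of connective tissue, were higher in 8 of 11 cases. Col1a1 was at 4960, 4770 and 4470 CPM in RUNX2 libraries, 1890, 1740 and 1570 CPM in RUNX1 libraries and 396, 313 and 728 CPM in vector libraries (log2 1.45, SE 0.10). Col3a1, the collagen of soft tissue, was at 1820, 1620 and 1640 CPM in RUNX2 libraries, 314, 285 and 274 CPM in RUNX1 libraries and 113, 86.3 and 226 CPM in vector libraries (log2 2.54, SE 0.10). No libraries of the 3 groups overlapped for either collagen. Col11a1, a minor cartilage collagen, had 10.8, 14.6 and 18.5 CPM with RUNX2, 2.22, 1.59 and 2.14 CPM with RUNX1 and 8.37, 5.7 and 12.2 CPM with vector, so that RUNX1 cultures were the lowest of the 3 groups.

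Matricellular proteins, which sit in the matrix and modulate cell behaviour, were higher in 21 of 28 cases. Ccn3, a CCN family regulator of growth, had 143, 158 and 156 CPM in RUNX2 libraries, 9.72, 7.42 and 8.82 CPM in RUNX1 libraries and 7.11, 7.72 and 15.3 CPM in vector libraries (log2 4.14, SE 0.12). Postn, or periostin, had 460, 485 and 474 CPM in RUNX2 libraries, 84.4, 67.1 and 72.4 CPM in RUNX1 libraries and 47.2, 34 and 94.8 CPM in vector libraries (log2 2.66, SE 0.10). In both, the RUNX1 and vector ranges overlapped while RUNX2 libraries stood far above. Fbn1, the microfibril protein fibrillin, and Thbs2, a thrombospondin, reached log2 2.39 (SE 0.12) and 2.40 (SE 0.11). Tenascin C was a clear exception: Tnc was at 595, 693 and 614 CPM in RUNX2 libraries, 910, 835 and 979 CPM in RUNX1 libraries and 10.3, 7.31 and 18.6 CPM in vector libraries (log2 -0.52, SE 0.10). Every library of either factor lay far above vector, and the RUNX1 libraries were highest.

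Of 13 tested proteoglycans, 5 were higher and 3 lower (median log2 fold change 0.40), or 8 higher without RUNX1 replicate 3. The lower share was near the 21.1% of all tested genes. Aspn, which binds collagen and TGF-beta, and Ogn, or osteoglycin, were higher in RUNX2 cultures (log2 2.63, SE 0.10 and 2.46, SE 0.12). Fmod, a collagen-fibril regulator of tendon, was at 5.99, 8.35 and 5.41 CPM in RUNX2 libraries, 21.3, 20.7 and 20.6 CPM in RUNX1 libraries and 0.0659, 0.201 and 0.15 CPM in vector libraries (log2 -1.67, SE 0.17). Prg4, the joint lubricant lubricin, was at 6.95, 6.35 and 6.82 CPM in RUNX2 libraries, 21.1, 20.9 and 23.9 CPM in RUNX1 libraries and 4.71, 3.12 and 5.18 CPM in vector libraries (log2 -1.71, SE 0.11). These 2 were thus RUNX1-leaning genes within a matrix list that leaned to RUNX2. Col18a1, a basement membrane collagen, did the same at 70.6, 62.6 and 66.4 CPM against 261, 252 and 191 CPM (log2 -1.82, SE 0.13), beside vector libraries at 39.9, 37.6 and 45.3 CPM.

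Of 35 tested matrix proteases and inhibitors, 23 were higher and 2 lower (median log2 fold change 0.66), the lower ones Plaur, the urokinase receptor, and Timp1, a metalloprotease inhibitor. The lower count was 1 without RUNX1 replicate 1 or RUNX1 replicate 2 and 0 without RUNX2 replicate 2 or RUNX2 replicate 3. The call on Plaur (log2 -0.81, SE 0.20) was also lost without RUNX1 replicate 1, and that on Timp1 (log2 -0.61, SE 0.18) without either of RUNX1 replicates 1 and 2. Mmp2, a gelatinase, was at 320, 273 and 274 CPM in RUNX2 libraries, 21.1, 17.9 and 16.6 CPM in RUNX1 libraries and 4.08, 4.5 and 5.2 CPM in vector libraries, 15.6-fold higher with RUNX2 (log2 3.96, SE 0.13). Mmp14, the membrane protease that activates MMP2, was at 1650, 1520 and 1500 CPM in RUNX2 libraries and at 686, 644 and 475 CPM in RUNX1 libraries (log2 1.37, SE 0.14). Of 10 tested matrix metalloproteases only 3 were higher and 7 were not called (median 0.26), close to the 19.9% of all tested genes. Of the ADAMTS proteases, which cut proteoglycans and procollagens, 12 of 13 were higher, up to Adamts9 (log2 2.38, SE 0.11). Adamts1 had 162, 192 and 189 CPM with RUNX2, 37.3, 33.1 and 43 CPM with RUNX1 and 59.3, 48.7 and 81.4 CPM with vector, so the RUNX1 cultures again lay below vector. Mmp13, the collagenase of bone and a textbook RUNX2 target, did not pass the test, at 4.33, 4.81 and 6.17 CPM in RUNX2 libraries, 5.69, 3.09 and 3.31 CPM in RUNX1 libraries and 0.45 CPM at most in vector libraries (log2 0.34, SE 0.27, edgeR adjusted p = 0.345).

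**Figure D2:**
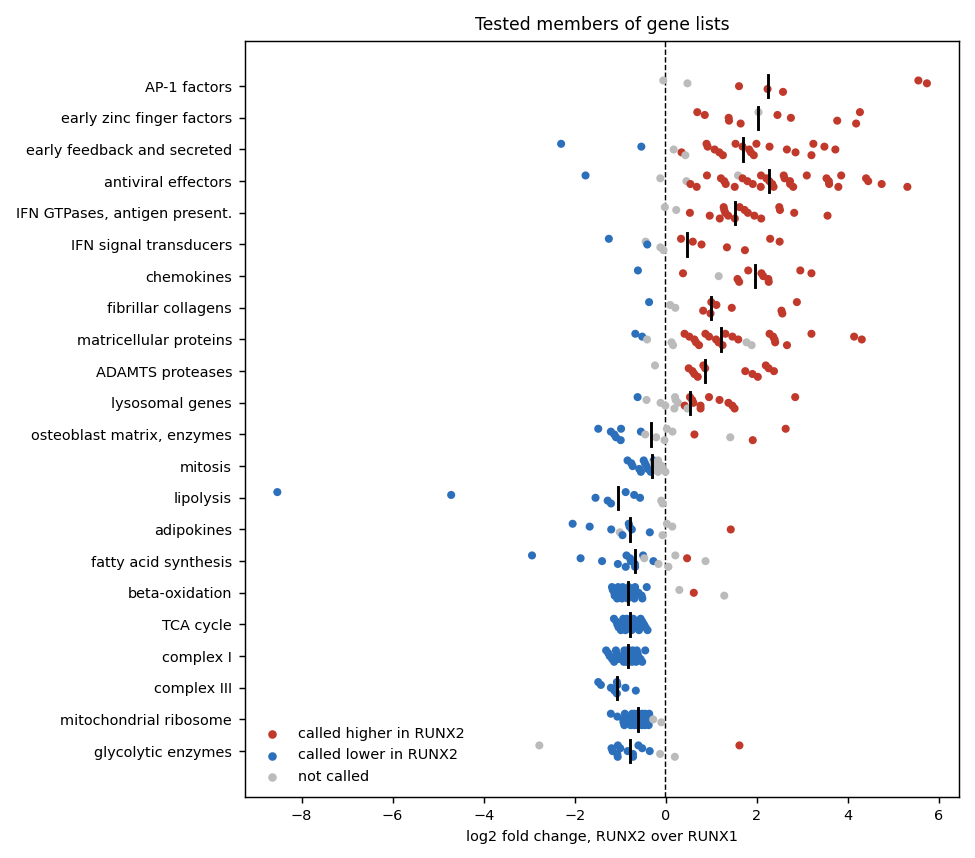
Log2 fold change of RUNX2 over RUNX1 for every tested member of 22 gene groups, one dot per gene, red where called higher in RUNX2 cultures, blue where called lower and grey where not called, with a black bar at the group median. Early and antiviral groups lie to the right, all 25 TCA cycle genes and all 36 complex I subunits lie to the left, and the far left dot in lipolysis is Ces1f, which had no counts in RUNX2 cultures so that its plotted value is not a bound.

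Of 35 tested bone and cartilage genes 9 were higher and 10 lower in RUNX2 cultures, shares near the 19.9% and 21.1% of all tested genes. Of 16 tested genes of osteoblast matrix and enzymes, 3 were higher and 7 lower in RUNX2 cultures (median log2 fold change -0.33), with medians against vector of 2.02 for RUNX2 and 1.84 for RUNX1. Sp7, or osterix, the transcription factor that acts after RUNX2 in bone formation, was at 4.25, 3.43 and 3.14 CPM in RUNX2 libraries, 13.8, 14.3 and 11.7 CPM in RUNX1 libraries and 0.264, 0.0671 and 0.4 CPM in vector libraries (log2 -1.88, SE 0.17, edgeR adjusted p = 6.82e-05). Ibsp, bone sialoprotein, was at 1.42, 1.74 and 2.01 CPM in RUNX2 libraries, 5.32, 5.26 and 3.93 CPM in RUNX1 libraries and 0.268 CPM at most in vector libraries (log2 -1.48, SE 0.24). Alpl, the phosphatase of mineralising cells, was at 113, 103 and 95.6 CPM in RUNX2 libraries, 265, 244 and 209 CPM in RUNX1 libraries and 74.6, 87.5 and 87.6 CPM in vector libraries (log2 -1.21, SE 0.11). In all 3 the RUNX1 libraries were highest and no groups overlapped.

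Spp1, or osteopontin, followed the same order, with 88.7, 84.9 and 86.6 CPM in RUNX2 libraries, 225, 182 and 162 CPM in RUNX1 libraries and 4.55, 3.22 and 8.8 CPM in vector libraries (log2 -1.13, SE 0.12). The osteocalcin genes were less firm. Bglap was at 2.67, 2.33 and 2.11 CPM in RUNX2 libraries and 6.44, 6.23 and 2.46 CPM in RUNX1 libraries (log2 -1.09, SE 0.35), with RUNX1 replicate 3 inside the RUNX2 range, and its call was lost on leaving out any 1 library other than that one. Bglap2, its near copy, was at 8.85, 7.56 and 8.57 CPM in RUNX2 libraries and 19.2, 19.7 and 10.5 CPM in RUNX1 libraries (log2 -0.98, SE 0.23); reads may have been split between these copies. The promoters of Bglap and Spp1 are shown because each holds the RUNX core TGTGGT once in the 170 bases before its start, in capitals and on the other strand, and both genes were lower with RUNX2. They lie at chr3:88384467-88384636 on the minus strand and chr5:104434941-104435110 on the plus strand of GRCm38.p6, from RefSeq.
Bglap: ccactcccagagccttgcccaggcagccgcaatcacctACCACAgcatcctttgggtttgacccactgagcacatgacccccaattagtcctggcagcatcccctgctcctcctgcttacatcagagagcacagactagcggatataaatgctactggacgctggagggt
Spp1: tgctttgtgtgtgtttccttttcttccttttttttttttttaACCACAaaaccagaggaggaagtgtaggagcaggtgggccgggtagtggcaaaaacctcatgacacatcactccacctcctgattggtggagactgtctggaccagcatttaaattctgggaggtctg

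The 3 higher genes of osteoblast matrix and enzymes, again near the 19.9% of all tested genes, included Enpp1 and Omd. Enpp1, which makes the mineralisation inhibitor pyrophosphate, was at 41.6, 40.1 and 44.2 CPM in RUNX2 libraries, 7.27, 5.26 and 7.75 CPM in RUNX1 libraries and 12.5, 10.6 and 13.2 CPM in vector libraries (log2 2.63, SE 0.15). Omd, or osteomodulin, a proteoglycan of bone, was at 54.2, 67.2 and 59.7 CPM in RUNX2 libraries and at 16.5, 17.4 and 14.2 CPM in RUNX1 libraries (log2 1.91, SE 0.12). Both separated the groups, and for Enpp1 the RUNX1 libraries lay below vector. Of 11 tested transcription factors of bone and cartilage, 3 were higher and 2 lower, near the 19.9% and 21.1% of all tested genes. The lower count was 1 without RUNX1 replicate 3 or any 1 RUNX2 library. Sox9, the master factor of cartilage, was at 25.8, 25.5 and 31.7 CPM in RUNX2 libraries, 17, 17.9 and 18.7 CPM in RUNX1 libraries and 6.85, 4.7 and 5.65 CPM in vector libraries (log2 0.63, SE 0.12). Acan, the cartilage proteoglycan aggrecan, was not tested for want of counts.

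**Figure D3:**
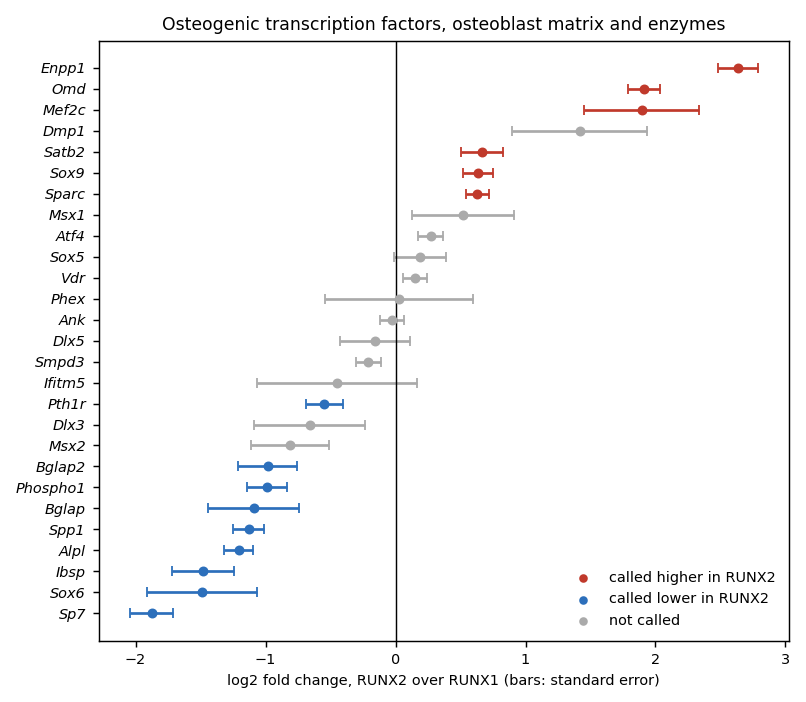
Log2 fold change of RUNX2 over RUNX1 with its standard error for all 27 tested osteogenic transcription factors and genes of osteoblast matrix and enzymes, red where called higher in RUNX2 cultures, blue where called lower and grey where not called. Enpp1 at 2.63 is highest and Sp7 at -1.88 lowest.

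In the TGF-beta and BMP pathway 18 of 52 tested genes were higher and 6 lower, a total near the 41.0% called over all tested genes. Grem1, a secreted BMP antagonist, was at 15.1, 20.7 and 18.4 CPM in RUNX2 libraries, 0.528, 0.607 and 0.454 CPM in RUNX1 libraries and 0.225 CPM at most in vector libraries (log2 5.08, SE 0.20). Bmp2, a bone-inducing ligand, was at 3.92, 5.28 and 5.03 CPM in RUNX2 libraries and 0.229, 0 and 0.16 CPM in RUNX1 libraries (log2 5.14, SE 0.65, or 5.86 without RUNX1 replicate 1). For both genes the lowest RUNX2 library lay above the highest RUNX1 library. Id2, a BMP-responsive inhibitor of differentiation factors, was lower with RUNX2 (log2 -1.18, SE 0.10).

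In the Wnt pathway, 15 of 35 tested genes were higher and 6 lower, beside 19.9% and 21.1% of all tested genes. The lower share was thus near that of all tested genes. Rspo2, an enhancer of Wnt receptors, was at 33.6, 35.7 and 33 CPM in RUNX2 libraries, 4.08, 3.29 and 2.86 CPM in RUNX1 libraries and 11.9, 6.17 and 18.7 CPM in vector libraries (log2 3.32, SE 0.15). The pathway target Axin2 was at 15.4, 15.9 and 14.4 CPM in RUNX2 libraries, 5.62, 6.81 and 8.5 CPM in RUNX1 libraries and 1.19, 3.25 and 1.55 CPM in vector libraries (log2 1.13, SE 0.16). For Axin2 both factors lay above vector, and for Rspo2 RUNX1 lay below it. Wnt10b, a ligand known to hold back fat cell formation, was at 28.4, 27.7 and 22.7 CPM in RUNX2 libraries, 48.7, 42 and 43.1 CPM in RUNX1 libraries and 0.225 CPM at most in vector libraries (log2 -0.77, SE 0.12). Ccnd1, or cyclin D1, a Wnt and mitogen target, was at 31.8, 35.4 and 37 CPM in RUNX2 libraries, 74.7, 67.3 and 67 CPM in RUNX1 libraries and 5.24, 8.49 and 6.53 CPM in vector libraries (log2 -1.0, SE 0.10).

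Among growth factors and their receptors 15 of 33 were higher and 3 lower, or 1 lower without RUNX1 replicate 2, RUNX2 replicate 2 or RUNX2 replicate 3. Igf1, the main local growth factor of mesenchymal tissue, was at 20.9, 24.7 and 26.1 CPM in RUNX2 libraries, 4.77, 3.04 and 4.54 CPM in RUNX1 libraries and 4.74, 2.68 and 5.4 CPM in vector libraries (log2 2.54, SE 0.18). Egfr, the receptor for EGF, was at 68.4, 81.7 and 79.9 CPM in RUNX2 libraries, 11.7, 10.4 and 9.35 CPM in RUNX1 libraries and 9.39, 7.85 and 15.5 CPM in vector libraries (log2 2.87, SE 0.12). In both, the RUNX1 and vector ranges overlapped and the RUNX2 libraries lay apart. Igf2, an imprinted fetal growth factor, had a log2 fold change of 3.49 (SE 0.68), or 5.01 without RUNX1 replicate 3, in which it was at 2.14 CPM against 0.229 and 0.405 CPM in RUNX1 replicates 1 and 2.

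The fat cell programme was lower with RUNX2 than with RUNX1. Of 63 tested adipocyte genes 38 were lower and 3 higher, or 5 higher without RUNX1 replicate 3 (median log2 fold change -0.56, with medians against vector of -0.94 for RUNX2 and -0.36 for RUNX1). Pparg, the master regulator of fat cells, was at 222, 212 and 225 CPM in RUNX2 libraries, 309, 314 and 320 CPM in RUNX1 libraries and 446, 436 and 422 CPM in vector libraries (log2 -0.52, SE 0.07). Its partner Cebpa was at 545, 461 and 477 CPM in RUNX2 libraries, 922, 976 and 767 CPM in RUNX1 libraries and 966, 1200 and 832 CPM in vector libraries (log2 -0.85, SE 0.11). Both were lowest with RUNX2, without overlap between the 2 factors.

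Lipid droplet and lipolysis genes differed further. Cidec, which fuses droplets, was at 135, 128 and 139 CPM in RUNX2 libraries, 567, 635 and 525 CPM in RUNX1 libraries and 441, 525 and 444 CPM in vector libraries (log2 -2.10, SE 0.10, edgeR adjusted p = 2.35e-06). RUNX1 libraries lay at or above the vector range, and RUNX2 libraries far below it. Pnpla2, the first lipase of triglyceride breakdown, was at 336, 295 and 301 CPM in RUNX2 libraries, 703, 763 and 679 CPM in RUNX1 libraries and 1200, 1460 and 921 CPM in vector libraries (log2 -1.20, SE 0.09), and 8 of 10 lipolysis genes were lower in all. The carboxylesterase Ces1d was at 0.381, 0.787 and 0.591 CPM in RUNX2 libraries, 11.9, 14.8 and 19.6 CPM in RUNX1 libraries and 3.89, 6.31 and 2.5 CPM in vector libraries (log2 -4.71, SE 0.29). Its paralog Ces1f had 0 counts in RUNX2 libraries and 134 in RUNX1 libraries, at least 46.8-fold lower with a floor of 3 counts over the RUNX2 group. Retn, the adipokine resistin, was higher with RUNX1 than in either other group, at 55.9, 46.8 and 54.9 CPM in RUNX2 libraries, 218, 255 and 179 CPM in RUNX1 libraries and 96.5, 117 and 88.8 CPM in vector libraries (log2 -2.05, SE 0.14). The call on Adipoq, adiponectin (log2 -0.35, SE 0.11), was lost without RUNX1 replicate 1, RUNX1 replicate 2, RUNX2 replicate 2 or RUNX2 replicate 3.

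Lipid synthesis leaned the same way, 27 of 49 genes lower and 4 higher, or 2 higher without RUNX1 replicate 1 or RUNX2 replicate 2 and 8 higher without RUNX1 replicate 3. Scd1, the desaturase that makes oleate, was at 6910, 7250 and 8220 CPM in RUNX2 libraries, 16900, 18700 and 23400 CPM in RUNX1 libraries and 33100, 28100 and 36900 CPM in vector libraries (log2 -1.40, SE 0.13). Thrsp, a lipogenic regulator, was at 161, 135 and 150 CPM in RUNX2 libraries, 534, 607 and 490 CPM in RUNX1 libraries and 617, 437 and 468 CPM in vector libraries (log2 -1.87, SE 0.11). For Scd1 both factors lay below vector, and for Thrsp the RUNX1 and vector ranges overlapped.

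Of 28 tested thermogenic genes, 12 were lower and 5 higher in RUNX2 cultures (median log2 fold change -0.37). The 5 higher calls became 3 without RUNX1 replicate 1, 8 without RUNX1 replicate 3 and 2 without RUNX2 replicate 3. Ucp1 was at 0.109, 0.0562 and 0.0739 CPM in RUNX2 libraries, 0.321, 0.481 and 0.641 CPM in RUNX1 libraries and 42, 63.2 and 41.2 CPM in vector libraries (log2 -2.55, SE 0.58). Its RUNX2 levels rest on few counts, since 3 counts over that group make 0.0237 CPM. All libraries of either factor lay far below vector. Elovl3, a cold-induced fatty acid elongase, was at 1.09, 1.12 and 0.979 CPM in RUNX2 libraries, 7.57, 8.1 and 9.49 CPM in RUNX1 libraries and 15.2, 20 and 14.5 CPM in vector libraries (log2 -2.98, SE 0.19). Cidea, a droplet protein of brown fat, was at 0.163, 0 and 0.296 CPM in RUNX2 libraries and 3.17, 3.77 and 5.24 CPM in RUNX1 libraries (log2 -4.61, SE 0.69, or -5.56 without RUNX2 replicate 3). The brown fat regulators Prdm16 (log2 0.78, SE 0.31, edgeR adjusted p = 0.0717) and Ebf2 (log2 -0.32, SE 0.13, edgeR adjusted p = 0.0748) did not pass with all libraries. Of the 8 brown fat markers, which include both, 5 were lower and 0 higher, or 1 higher without RUNX1 replicate 3. Ppargc1a, the coactivator of mitochondrial biogenesis, was higher, at 16.7, 25.2 and 28.1 CPM in RUNX2 libraries, 8.26, 9.01 and 15.7 CPM in RUNX1 libraries and 26, 24.2 and 29.8 CPM in vector libraries (log2 1.09, SE 0.27), a call lost without RUNX1 replicate 1 or RUNX2 replicate 3.

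In the respiratory chain 75 of 79 tested subunits were lower and 0 higher in edgeR's test, with 0 also at an unadjusted p below 0.05 and 0 by DESeq2, and with a median log2 fold change of -0.88. Against vector the list's median was -1.20 for RUNX2 and -0.31 for RUNX1. All 36 subunits of complex I, the NADH dehydrogenase, all 4 of complex II and all 9 of complex III were lower, as were 13 of 15 in complex IV and 13 of 15 in ATP synthase. Uqcrq, a complex III subunit, was at 179, 125 and 145 CPM in RUNX2 libraries, 433, 486 and 337 CPM in RUNX1 libraries and 454, 510 and 480 CPM in vector libraries (log2 -1.48, SE 0.17). Cox4i1, the main regulatory subunit of complex IV, was at 829, 576 and 630 CPM in RUNX2 libraries, 1360, 1500 and 1080 CPM in RUNX1 libraries and 1680, 1840 and 1570 CPM in vector libraries (log2 -0.95, SE 0.16). Cox7a1, a heart and brown fat isoform, had a log2 fold change of -2.62 (SE 0.48), or -1.89 without RUNX1 replicate 3, where it was at 21.4 CPM against 7.02 and 7.47 CPM in RUNX1 replicates 1 and 2.

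The pathways that feed the chain were lower too. All 25 tested TCA cycle genes were lower (median log2 fold change -0.78). In fatty acid oxidation 26 of 29 were lower and 1 higher, or 3 higher without RUNX1 replicate 3. Hadhb, of the trifunctional protein, was at 170, 173 and 180 CPM in RUNX2 libraries, 371, 366 and 448 CPM in RUNX1 libraries and 979, 1040 and 910 CPM in vector libraries (log2 -1.18, SE 0.10). The exception was Cpt1a, the carnitine transferase isoform typical of liver, at 101, 111 and 102 CPM in RUNX2 libraries, 65.1, 65.4 and 75 CPM in RUNX1 libraries and 42.6, 45 and 47.2 CPM in vector libraries (log2 0.62, SE 0.09). Proteins of the mitochondrial ribosome were lower in 42 of 44 cases (median -0.61), with medians against vector of -0.68 for RUNX2 and -0.06 for RUNX1. Mitochondrial carriers, which move metabolites across the inner membrane, were lower in 15 of 24 cases and higher in 3 (median -0.67). Esrra, a nuclear receptor that drives respiratory genes, was at 71.2, 50.1 and 55.2 CPM in RUNX2 libraries, 118, 129 and 100 CPM in RUNX1 libraries and 161, 219 and 148 CPM in vector libraries (log2 -0.98, SE 0.15).

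Glycolysis was lower too, in 12 of 16 enzymes with 1 higher. Pgk1, phosphoglycerate kinase, was at 602, 476 and 596 CPM in RUNX2 libraries, 1250, 1130 and 1090 CPM in RUNX1 libraries and 3970, 3900 and 3940 CPM in vector libraries (log2 -1.05, SE 0.11). Of 22 hypoxia-induced genes, 7 were higher and 7 lower (median log2 fold change -0.12), beside 19.9% and 21.1% of all tested genes. On the higher side Car12 reached log2 2.32 (SE 0.42), from low levels of 1.58, 1.38 and 0.831 CPM in RUNX2 libraries. Bnip3, a mitophagy receptor induced by low oxygen, was at 78.2, 73.4 and 106 CPM in RUNX2 libraries, 183, 187 and 210 CPM in RUNX1 libraries and 1710, 1450 and 1540 CPM in vector libraries (log2 -1.17, SE 0.14). For Pgk1 and Bnip3 every library of either factor lay below every vector library.

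**Figure D4:**
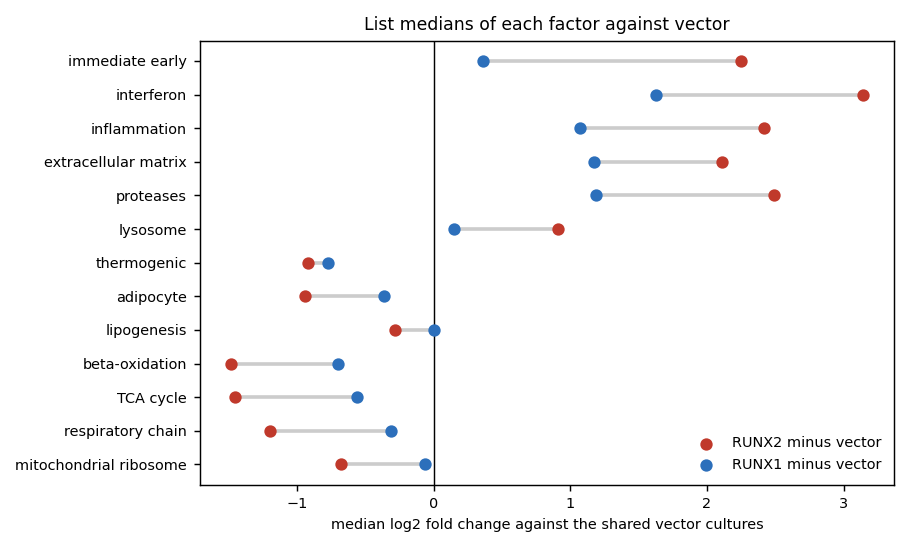
Median log2 fold change against the vector cultures for 13 gene lists, RUNX2 in red and RUNX1 in blue, joined by a grey line. Both comparisons use the same 3 vector libraries; the widest gaps are at the immediate early list (2.25 and 0.36) and the interferon list (3.14 and 1.63).

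Mitotic genes were lower in 11 of 20 cases, with Cdk1, the mitotic kinase, at 288, 270 and 275 CPM in RUNX2 libraries, 427, 439 and 351 CPM in RUNX1 libraries and 169, 163 and 191 CPM in vector libraries (log2 -0.55, SE 0.10). Both factors lay above vector, with RUNX1 libraries highest. Mdm2, a p53 target that restrains p53, was higher with RUNX2 (log2 0.82, SE 0.07). Of 21 lysosomal genes 12 were higher and 1 lower, led by Gpnmb, a glycoprotein of lysosomes in macrophages and bone cells, at 570, 494 and 502 CPM in RUNX2 libraries, 84.8, 71.3 and 62.2 CPM in RUNX1 libraries and 7.18, 5.7 and 8.28 CPM in vector libraries (log2 2.84, SE 0.13). Heat shock chaperones were lower in 7 of 14 cases, or 4 without RUNX2 replicate 3, among them Hspb8 (log2 -1.18, SE 0.09).

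Beyond these lists, Cdh11 and Sp100 were among the 15 genes most strongly higher with RUNX2 at a mean of 5 CPM or more, predicted genes left out. Cdh11, a cadherin of mesenchymal and osteoblast cells, was at 17.6, 24.3 and 23.3 CPM in RUNX2 libraries, 0.596, 0.354 and 0.748 CPM in RUNX1 libraries and 0.856, 0.537 and 1.5 CPM in vector libraries (log2 5.26, SE 0.26). Sp100, a nuclear body protein induced by interferon, was at 33.9, 34.6 and 32.2 CPM in RUNX2 libraries against 0.963, 0.987 and 1.5 CPM in RUNX1 libraries (log2 4.87, SE 0.18). For Cdh11 the RUNX1 and vector ranges overlapped. By a rule of 1 CPM or more in every library of one group and under 0.1 CPM in every library of the other, 3 genes were on in RUNX2 and off in RUNX1 cultures and 0 the other way, and 1 remained on in RUNX2 with the upper limit at 2 CPM. They were Slc12a3, the thiazide-sensitive salt transporter of the kidney, with 201 counts, Gbp4, an interferon-induced GTPase, with 184 counts, and the predicted gene Gm21680 with 379 counts, all at 0 counts in RUNX1 libraries. With a floor of 3 counts over the RUNX1 group these were at least 63.9-fold, 58.5-fold and 120-fold higher.

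The 15 most strongly lower genes at a mean of 5 CPM or more, predicted genes left out, included Gzmc and Il12rb1. Gzmc, a granzyme of cytotoxic lymphocytes, was at 3.27, 2.67 and 2.11 CPM in RUNX2 libraries, 17.8, 24.7 and 13.3 CPM in RUNX1 libraries and 0 in all vector libraries (log2 -2.80, SE 0.26). Gzmb, its close relative, was at 1.83, 0.562 and 1.33 CPM in RUNX2 libraries, 4.89, 6.48 and 5.34 CPM in RUNX1 libraries and 0 in vector libraries (log2 -2.16, SE 0.38). Il12rb1, an interleukin receptor of lymphocytes, was at 1.63, 2.25 and 1.33 CPM in RUNX2 libraries, 7.98, 8.88 and 8.28 CPM in RUNX1 libraries and 0.0671 CPM at most in vector libraries (log2 -2.28, SE 0.22). Granzymes have close paralogs, between which reads may have been split. The defining lymphocyte markers Cd3e, Ms4a1 and Cd8a were listed at 0 in all 6 libraries compared. The promoter of Gzmc, chr14:56234658-56234827 on the minus strand of GRCm38.p6 in RefSeq, is shown because it holds the RUNX core once, in capitals.
Gzmc: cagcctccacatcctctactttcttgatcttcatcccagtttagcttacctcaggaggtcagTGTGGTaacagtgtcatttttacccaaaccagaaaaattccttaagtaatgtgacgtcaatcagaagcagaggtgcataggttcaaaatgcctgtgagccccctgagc

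Adtrp, which breaks down lipid esters known as FAHFAs, was at 1.69, 0.731 and 1.26 CPM in RUNX2 libraries, 10.3, 12.6 and 12.6 CPM in RUNX1 libraries and 7.25, 9.86 and 5.85 CPM in vector libraries (log2 -3.27, SE 0.28). Diras2, a small GTPase known mainly from brain, was at 1.36, 2.19 and 1.81 CPM in RUNX2 libraries, 11.6, 10.2 and 18.9 CPM in RUNX1 libraries and 0.0659, 0.201 and 1.05 CPM in vector libraries (log2 -2.92, SE 0.28). RUNX2 libraries lay below vector for Adtrp, and libraries of both factors lay above vector for Diras2. Among the 15 lowest genes, Ndufs5-ps and Rps6-ps4 are pseudogenes and Mir682 a microRNA gene, whose counts may belong to related or overlapping transcripts.

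Promoters were read for short motifs in 11291 of the 14296 tested genes, from 250 bases before to 50 after the RefSeq start and on both strands. The ISRE core GAAANNGAA was found in 51.5% of 66 interferon-list promoters, in 20.5% of those of the 100 called genes with the highest fold change at 5 CPM or more, in 7.79% of those of the 100 with the lowest, and in 7.1% of all. Promoters were at hand for 73 of the 100 highest and 77 of the 100 lowest. The AP-1 site TGANTCA was found in 16.4% of the 100 highest, 5.19% of the 100 lowest and 5.01% of all. It was also found in 13.6% of interferon-list promoters, in 10.8% of 65 respiratory chain promoters and in 0 of 33 immediate early promoters. In those 33 promoters the CRE TGACGTCA was found in 2 and the CArG box CCWWWWWWGG (W is A or T) in 3, against 3.21% and 1.38% of all. The RUNX core TGTGGT was found in 16.4% of the 100 highest, 10.4% of the 100 lowest and 12.2% of all. These shares describe letters in a window and do not show binding.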

How the data were processed

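RNA-seq counts per gene symbol were deposited by the authors, 1 column per library per the file headers. The submitters' processing notes name fastp, STAR, featureCounts and build mm39, with no versions, and strand use in counting is not given in the sources used here. Raw counts of the 6 compared libraries were tested in edgeR 4.0.16 (R 4.3.3) by robust quasi-likelihood fits after filterByExpr, with TMM factors from all 9 libraries of the table and Benjamini-Hochberg adjustment over 14296 genes; 11968 genes were not tested for low counts. Folds against vector come from a fit of all 9 libraries. CPM values are TMM-scaled and not length-adjusted, so they do not compare genes with each other. SE is the absolute log2 fold change over the square root of F. The fit was tested on simulated data with known changes. DESeq2 1.42.0, other scalings, no filter, a replicate block and leaving out each of the 6 compared libraries were alternatives. Of counts from 1 to 19, 72.31 to 76.76% were even in each library, as when both mates of a read pair are counted, so counting precision is lower than the counts imply and floors of 3 counts cover counting error only. 37 per-sample columns of other experiments in the series were not used. Levels in other cultures are counts scaled within their own tables. Tables were made with pandas 2.3.3 and figures with matplotlib 3.10.9.

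Genes named were the RUNX family and CBFB, the 15 highest and lowest called genes at a mean of 5 CPM or more without overlap, up to 6 called members per gene group in its main direction and 3 in the other, on/off genes and a set of well-known genes; the text gives a part of them. Ifit3 and Gm21680 were named outside that rule, after their values were seen. So were the cell type markers Myh6, Cd34, Ptprc, Cd3e, Ms4a1, Cd8a, Kdr, Vwf, Pecam1, Tek, Emcn, Cdh5 and Cldn5. The comparison and the lists were chosen with earlier results of these data known.

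Results for a few genes are not reported here.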

Additional observations from a re-analysis of the deposited data

How the results depend on the processing

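Leaving out 1 library gave 1921 to 3787 genes higher and 1854 to 3780 genes lower in RUNX2 cultures. The lower count was 1854 without RUNX2 replicate 2 and 2007 without RUNX2 replicate 3, against 3014 with all libraries, in fits with fewer samples. The split of higher and lower calls was 2841 and 3014 as reported, 2995 and 2797 with TMM over the 6 libraries, 2915 and 2910 with DESeq2 size factors, 3049 and 3245 by DESeq2's test, 2608 and 2723 without a count filter, 2767 and 3078 with all 9 libraries in the fit, and 3061 and 2723 with TMM before the filter, an alternative chosen after seeing the data. With the replicate number as a block it was 3141 and 3260. Deviations of same-numbered libraries correlated at 0.223, -0.283 and 0.249, and the labels do not say that a number marks a shared batch, so the libraries were not treated as pairs. Only 1 gene, not 3, was on in RUNX2 and off in RUNX1 cultures when on meant 2 CPM; the stricter limit accounts for that. Of 5512 values of named genes under these alternatives, 5254 kept direction and side of the threshold, 254 lost the call (210 of them on leaving out a library), 4 gained it and 0 reversed. Counts within gene groups that moved by over 1.5 times on leaving out a library are given beside them in the text. With 3 libraries a group, sample outliers could not be assessed by a formal rule, and RUNX1 replicate 3 limits what can be said of genes that heart muscle expresses. For comparisons with vector the same limit comes from vector replicates 1 and 2, which held 149 and 566 CPM of cardiac markers. No alternative left out a vector library.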
